A study of Homo sapiens with 3 samples.

Results

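Cholesterol and fatty acid synthesis was described by 35 genes, taken from a list of pathway members and found by gene name among the 39320 gene rows on the assembled chromosomes of GRCh38. The list holds 7 mevalonate enzymes, 10 squalene and sterol enzymes, 6 regulators with 1 sterol carrier, and 11 genes of fatty acid synthesis, and each had exactly 1 row. It does not cover every step of the pathway. RNA was sequenced from cells labelled as wild-type HepG2, a line established from a human liver tumour. The 3 libraries of poly(A) RNA are called replicates 1, 2 and 3. The libraries form 1 condition, with no treatment and no control group, so the levels and their spread are the result. The labels do not say whether the replicates came from separate cultures, so the SD may be technical.

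The level of a gene is given as TPM, its share of all transcripts after scaling for gene length, with the same total in each library. Levels of different genes can therefore be set side by side, but TPM does not show how many reads stand behind a value. The ratio of coverage to FPKM, used as a relative measure of depth, was highest in replicate 1, 1.16 times that of replicate 3, and 1.12 times in replicate 2. Between 19.9% and 20.2% of all TPM fell on mitochondrially encoded genes, most of it on a single tRNA row, TRNC, with 16.9% to 17.2%. The labelled cell type was checked against a list of 18 proteins that hepatocytes secrete. Only 2 of its genes, VTN and RBP4, reached 10 TPM in all 3 libraries, 16 were below 1 TPM in each, and 11, ALB and APOB among them, were listed at 0. The epithelial keratins KRT8 and KRT18 were at 2610 ± 28.6 TPM and 2017 ± 102 TPM (SD, n = 3), and VIM, an intermediate filament gene of mesenchymal cells, at 694 ± 48.1 TPM. The label of a liver cancer line was thus not matched by its secreted products, and the libraries are called by their label here. At least 10 TPM in all 3 libraries was reached by 2 of 5 epithelial markers, 2 of 5 mesenchymal markers and 0 of 3 markers of adrenal and gonadal steroid cells. Of these last, CYP11A1 was at 8.17, 8.76 and 6.53 TPM in replicates 1, 2 and 3, while STAR and NR5A1 were below 1 TPM in each. None of 4 adipocyte markers and none of 4 blood markers reached 1 TPM in any library.

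Cells make cholesterol from acetyl-CoA through mevalonate, isoprenoid diphosphates, squalene and lanosterol, and make fatty acids from the same cytosolic acetyl-CoA. Both arms are switched on by the SREBP transcription factors, which stay in the endoplasmic reticulum with their escort SCAP and the INSIG proteins while sterols are plentiful, and which are cut and sent to the nucleus when sterols fall. In the liver these arms supply membranes, bile acids and the lipids of secreted lipoproteins. SREBP target promoters commonly join a sterol regulatory element with binding sites of NF-Y, which reads CCAAT, and of Sp1, which reads the GC box.

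Each of the 35 genes reached 1 TPM in every library, and 30 reached 10 TPM in all 3. Over all gene rows that share was 20.7%, and over rows of protein-coding genes it was 40.3%. At least 10 TPM in every library was reached by 7 of 7 mevalonate enzymes, 8 of 10 squalene and sterol enzymes, 5 of 7 regulators and carrier, and 10 of 11 fatty acid genes. The exceptions were TM7SF2, SC5D, INSIG2, MLXIPL and ACACB. As these are bulk samples, fewer cells expressing a gene and less RNA per cell cannot be told apart. Of the 35 genes, 29 stood above 15.4 TPM, the median of the 13753 genes whose mean reached 1 TPM. The median of the members' means was 48.5 TPM, and the means ran from 2.62 TPM for TM7SF2 to 317 TPM for EBP, a 121-fold span within 1 pathway. Together the 35 genes summed to 2927, 2816 and 2704 TPM in replicates 1, 2 and 3, or 2816 ± 111 TPM.

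**Figure D1:**
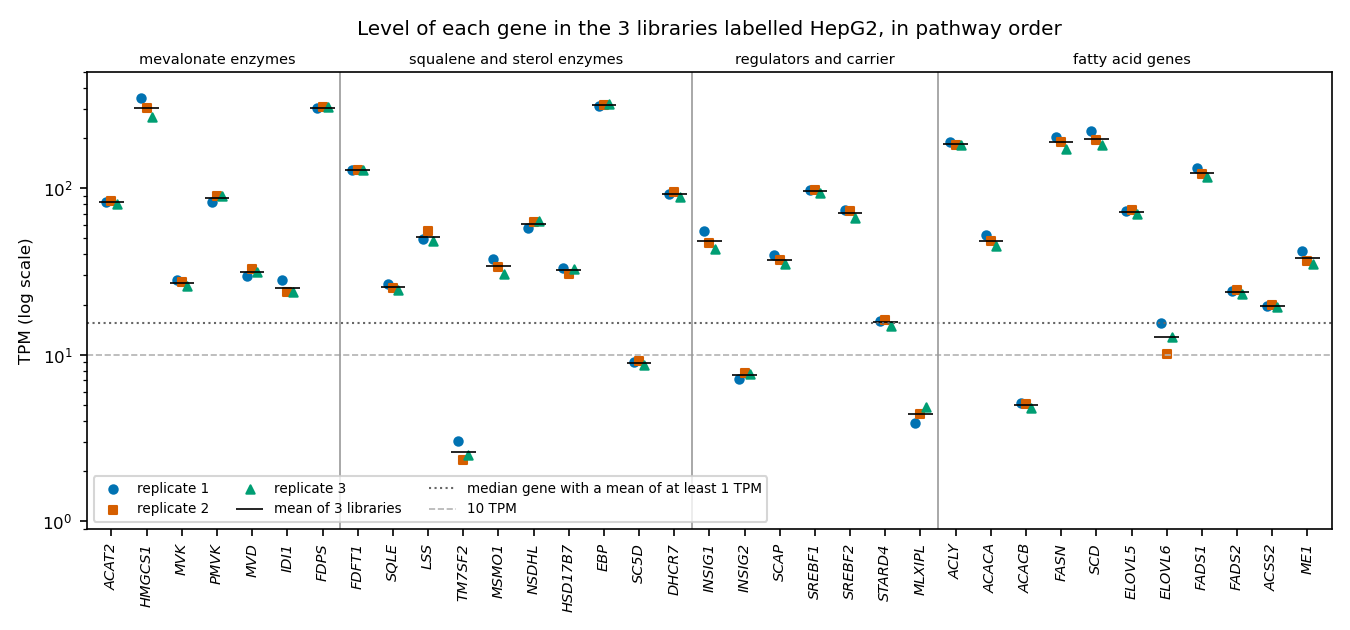
TPM on a log scale for each of the 35 genes in pathway order, with 1 point for each of the 3 libraries and a short line at their mean; the dotted line is the median of all genes whose mean reached 1 TPM (15.4 TPM) and the dashed line is 10 TPM. Within most genes the 3 points nearly coincide, while EBP, FDPS and HMGCS1 stand between 267 and 347 TPM and TM7SF2 lies lowest, between 2.32 and 3.05 TPM.

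The mevalonate enzymes had the most even cover, with means from 25.1 to 306 TPM and a median of 82.3 TPM. ACAT2, the cytosolic thiolase that joins acetyl-CoA units, measured 82.7, 83.5 and 80.7 TPM in replicates 1, 2 and 3, or 82.3 ± 1.46 TPM. HMGCS1, which adds the next acetyl unit to form HMG-CoA, was at 347, 303 and 267 TPM. Replicate 1 was highest and replicate 3 lowest for this gene, with a mean of 306 ± 39.9 TPM and a coefficient of variation of 13.1%. FDPS, which builds farnesyl diphosphate at the end of this stretch, was at 304, 307 and 307 TPM. Its mean of 306 ± 1.74 TPM could not be told from that of HMGCS1, but its coefficient of variation was only 0.569%. The 4 enzymes between them were lower. MVK, which phosphorylates mevalonate, was at 28.0, 27.3 and 25.9 TPM, and PMVK, the kinase that follows it, at 82.9, 89.3 and 89.4 TPM. PMVK was thus 2.96 to 3.45 times as high as MVK in TPM. MVD, which decarboxylates the product to isopentenyl diphosphate, was at 29.7, 32.5 and 31.4 TPM, and IDI1, the isomerase of that isoprenoid unit, at 27.9, 23.7 and 23.7 TPM. MVD, MVK and IDI1 thus formed a low group. IDI1 in replicate 1 lay within the range of MVK over the libraries, but MVK was the higher of these 2 in every library. PMVK and FDPS lie on chromosome 1 with 366058 bp between their rows, and MVK and ACACB on chromosome 12 with 305234 bp between theirs.

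Among the squalene and sterol enzymes, a few genes were high and most were moderate. FDFT1, squalene synthase and the first enzyme committed to sterols, was at 129, 129.7 and 128 TPM, or 129 ± 0.841 TPM. SQLE, the squalene epoxidase, was at 26.5, 25.1 and 24.6 TPM, so that FDFT1 was 4.87 to 5.21 times as high in TPM. LSS, which closes the rings to give lanosterol, was at 49.8, 55.4 and 48.1 TPM, with replicate 2 above both others. Next come the enzymes that remove methyl groups from the ring. MSMO1, a methyl sterol oxidase, was at 37.7, 33.6 and 30.4 TPM and NSDHL, the dehydrogenase of the same complex, at 58.1, 62.7 and 63.1 TPM. MSMO1 was highest in replicate 1 and NSDHL lowest there. HSD17B7, the reductase that completes the step, was at 33.3, 30.6 and 32.7 TPM. EBP, the isomerase that moves the ring double bond, was the highest gene of the list by mean, at 312, 317 and 322 TPM, or 317 ± 4.83 TPM. SC5D, the desaturase that follows EBP, was at 8.99, 9.10 and 8.66 TPM, and the mean of EBP was 35.6 times that of SC5D. DHCR7, a final reductase of the pathway, was at 92.6, 94.5 and 89.1 TPM. TM7SF2, a reductase of the sterol ring, was lowest of all, at 3.05, 2.32 and 2.49 TPM. LBR, the inner nuclear membrane protein with the same reductase activity, was at 62.8, 55.1 and 55.3 TPM, above TM7SF2 in every library.

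Ordered by mean TPM, the 17 mevalonate and sterol enzymes began with EBP, FDPS, HMGCS1 and FDFT1 and ended with IDI1, SC5D and TM7SF2. Parts of this order depend on the unit. With coverage NSDHL, at 46.2, 48.9 and 44.2, was below MSMO1, at 217, 191 and 154. Likewise FDFT1, at 358, 359 and 316, was below DHCR7, at 557, 558 and 471. Of the 16 neighbouring pairs in the order by TPM, 7 had library values that overlapped. These were FDPS and HMGCS1, DHCR7 and PMVK, PMVK and ACAT2, MSMO1 and HSD17B7, HSD17B7 and MVD, MVK and SQLE, and SQLE and IDI1. Compared within each library, PMVK was above ACAT2 and MVK above SQLE every time in TPM. With coverage ACAT2 was above PMVK every time, at 423, 406 and 359 against 337, 358 and 319. The order of PMVK and ACAT2 thus depends on the unit. The order of the other overlapping pairs changed between libraries and is not resolved. By TPM the highest gene was HMGCS1 in replicate 1 and EBP in replicates 2 and 3. TM7SF2 and SC5D were lowest and next to lowest in all 3 libraries. Over all 35 genes, 19 of 34 neighbouring pairs overlapped.

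The regulators were expressed at lower levels than many of the enzymes, and none had a mean of 100 TPM. SREBF1, which encodes the SREBP-1 proteins that favour fatty acid genes, was at 97.8, 98.1 and 94.0 TPM. SREBF2, whose product favours sterol genes, was at 73.9, 72.7 and 66.6 TPM. SREBF1 was above SREBF2 in every library. SCAP, the escort that senses sterols, was at 39.4, 37.1 and 35.2 TPM. INSIG1, the anchor that is itself an SREBP target, was at 55.1, 47.2 and 43.2 TPM, and INSIG2, its relative, at 7.17, 7.75 and 7.60 TPM. INSIG1 was highest in replicate 1 and lowest in replicate 3, while INSIG2 was lowest in replicate 1. STARD4, a carrier that moves cholesterol between membranes, was at 15.97, 16.1 and 14.9 TPM. MLXIPL, the glucose-responsive factor ChREBP, was at 3.87, 4.39 and 4.84 TPM, lowest in replicate 1. MLX, its binding partner, was at 49.4 ± 1.81 TPM.

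The fatty acid genes were led by SCD, FASN and ACLY. ACLY, which splits citrate to give cytosolic acetyl-CoA, was at 191, 182 and 183 TPM. ACSS2, which makes acetyl-CoA from acetate, was at 19.5, 19.9 and 19.3 TPM, so that ACLY was 9.18 to 9.80 times as high in TPM. The gap was wider with coverage, at 1136, 1060 and 954 for ACLY and 38.2, 38.1 and 33.1 for ACSS2. ACACA, the cytosolic acetyl-CoA carboxylase, was at 52.4, 48.0 and 45.1 TPM, and ACACB, the form bound to mitochondria, at 5.10, 5.08 and 4.76 TPM. FASN, the synthase of palmitate, was at 204, 190.5 and 173 TPM, and SCD, which puts in the first double bond, at 220.5, 194 and 181 TPM. Like ACACA, both were highest in replicate 1 and lowest in replicate 3. ELOVL5, an elongase of polyunsaturated chains, was at 73.5, 73.8 and 70.2 TPM. ELOVL6, the elongase of saturated and monounsaturated chains, was at 15.6, 10.05 and 12.8 TPM, the widest spread of the list in TPM. Its mean was 12.8 ± 2.76 TPM and its coefficient of variation 21.5%. Its coverage was 51.4, 43.0 and 37.1, so replicate 2 was lowest in TPM but not in coverage, which is not scaled for depth. FADS1 and FADS2, the desaturases of polyunsaturated chains, were at 133, 122 and 116 TPM and at 24.0, 24.5 and 23.2 TPM. ME1, the malic enzyme that supplies NADPH, was at 42.3, 36.5 and 35.1 TPM. SCD was highest of the 11 genes in replicates 1 and 2 and ACLY in replicate 3. The library values of SCD, FASN and ACLY overlapped, though SCD was above FASN in every library.

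The median of the 17 mevalonate and sterol enzymes was 49.8, 55.4 and 48.1 TPM in replicates 1, 2 and 3, and that of the 11 fatty acid genes was 52.4, 48.0 and 45.1 TPM. The log2 ratio of these medians was -0.07, 0.21 and 0.09, a mean of 0.08 ± 0.14 (SD, n = 3), so the arms did not differ beyond the spread between libraries. With coverage in place of TPM the ratio was -0.49 ± 0.15. Coverage per FPKM differed widely between rows, and relative to the highest value it was 1 for EBP, SCD and TM7SF2, 0.128 for SREBF2 and 0.127 for NSDHL.

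Genes with related activities were compared within each library, as the log2 ratio of TPM + 1, over 12 pairs. SCD exceeded SCD5, the other stearoyl-CoA desaturase, by 5.60 ± 0.17 (SD, n = 3). SCD5 was at 3.23, 2.78 and 3.29 TPM. ACSS2 exceeded ACSS1, the mitochondrial form, by 4.06 ± 0.10, with ACSS1 below 1 TPM in all 3 libraries. The pseudocount sets much of that value, which was 5.89 ± 0.32 with 0.1 in place of 1, so the order of this pair and SCD over SCD5 (then 5.95 ± 0.19) is not resolved. ACACA exceeded ACACB by 3.05 ± 0.07 and INSIG1 exceeded INSIG2 by 2.53 ± 0.22. ELOVL5 exceeded ELOVL6 by 2.43 ± 0.30 and FADS1 exceeded FADS2 by 2.32 ± 0.08. With coverage in place of TPM the ratio of ELOVL5 to ELOVL6 was 2.40 ± 0.06, a narrower spread. Smaller differences were seen for ME1 over ME2, a mitochondrial malic enzyme, at 1.39 ± 0.17, and for SREBF1 over SREBF2 at 0.44 ± 0.05. TM7SF2 was below LBR by a log2 ratio of -4.02 ± 0.05. ACAT2 was below ACAT1, the mitochondrial thiolase, by a ratio of -0.42 ± 0.03. That direction was reversed with coverage in place of TPM, where the ratio was 1.90. Coverage also gave wider ratios for SCD over SCD5 (8.48), ACACA over ACACB (5.15), FADS1 over FADS2 (4.34), INSIG1 over INSIG2 (4.33), SREBF1 over SREBF2 (3.02) and ME1 over ME2 (1.99), so their directions held but their sizes depend on the unit. IDI2, the relative of IDI1, was listed at 0 in 2 libraries and at 0.0559 TPM in replicate 3, so no fold is given for that pair. Every pair reported had the same direction in 3 of 3 libraries. With 3 libraries a two-sided exact permutation test by sign flips cannot go below p = 0.25, which was its value for each pair before and after Benjamini-Hochberg adjustment.

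**Figure D2:**
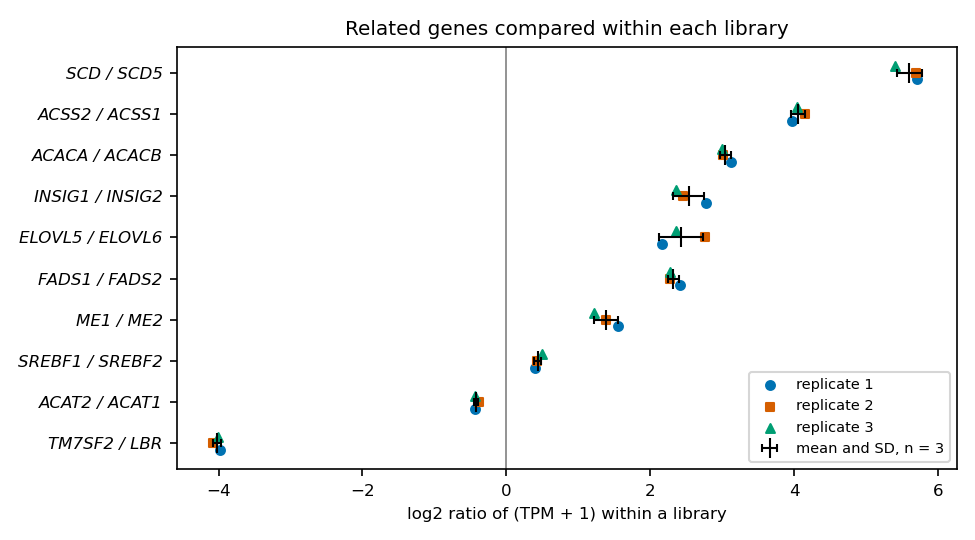
Log2 ratio of TPM + 1 between related genes within each of the 3 libraries, with a cross for the mean and a bar for the SD (n = 3); values right of the line at 0 mean that the gene named first was higher. The ratio runs from -4.02 for TM7SF2 over LBR to 5.60 for SCD over SCD5, and the widest bar is that of ELOVL5 over ELOVL6.

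Promoter sequence was read from RefSeq windows of GRCh38.p14 that run from 250 bases before to 50 bases after a gene's start. Of the 35 genes, 31 had a window. ACAT2, FDFT1, SQLE and FASN had none, and the RefSeq starts behind the windows of MVK, PMVK, SCAP, ACLY, ACACB and ELOVL6 lie over 250 bp from the 5′ end of the deposited row. Both strands were searched for 4 motifs, the sterol regulatory element TCACNCCAC, the E-box CACGTG, the NF-Y site CCAAT and the GC box GGGCGG, and no matches of different motifs shared a base. The NF-Y site was in 19 of 31 windows, or 61.3%, and in 36.2% of the 22489 windows of all genes. By arm it was in 12 of 14 mevalonate and sterol enzymes, all but PMVK and IDI1, in 4 of 10 fatty acid genes and in 3 of 7 regulators. The GC box was in 27 of 31 windows and in 47% of all windows. The E-box was in 5 windows, those of LSS, SC5D, INSIG1, SCAP and ELOVL5, or 16.1% against 7.7% of all windows. The sterol regulatory element in this spelling was in 1 window, that of SREBF2, and in 1.1% of all windows. A match describes the letters only, and a window without one says nothing about binding of the factor.

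**Figure D3:**
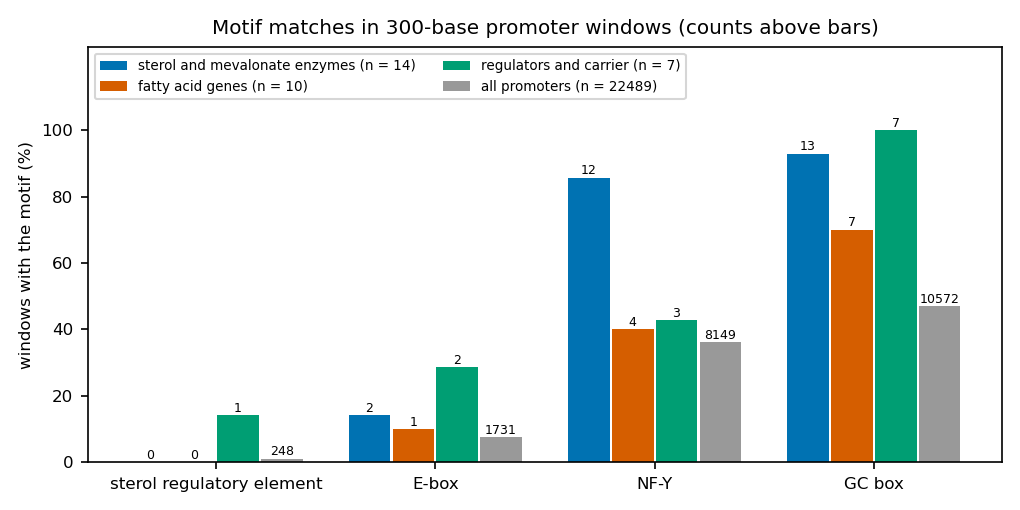
Share of promoter windows, in percent, that hold each motif on either strand, for mevalonate and sterol enzymes (14 windows), fatty acid genes (10), regulators and carrier (7) and all genes (22489), with the number of windows above each bar. The NF-Y site is in 85.7% of the windows of mevalonate and sterol enzymes and in 36.2% of all windows, whereas the fatty acid genes, at 40%, lie near the share of all windows.

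The stretches upstream of the start are printed for 7 genes, from 5′ to 3′ on the strand of the gene, because they stand at both ends of the levels or show the motifs named above. Capitals mark the sterol regulatory element and CCAAT, which reads ATTGG on the other strand, and positions count from 0 at the RefSeq start. SREBF2 (chr22:41832855-41833068, plus strand) holds the sterol regulatory element at -133 and an NF-Y site at -106. INSIG1 (chr7:155297628-155297761, plus strand) holds an NF-Y site at -170, and INSIG2 (chr2:118088258-118088407, plus strand), the lower of the pair, holds neither motif. HMGCS1 (chr5:43313523-43313662, minus strand) holds an NF-Y site at -155 in the stretch shown, and its window holds another at -100. EBP (chrX:48521648-48521797, plus strand), the highest gene, holds NF-Y sites at -70 and -30 in the stretch shown, and its window holds another at -191. NSDHL (chrX:152830813-152830956, plus strand) holds 3 NF-Y sites in the stretch shown. TM7SF2 (chr11:65111694-65111843, plus strand), the lowest gene, also holds an NF-Y site, at -74, so the site did not separate the highest gene from the lowest.
SREBF2: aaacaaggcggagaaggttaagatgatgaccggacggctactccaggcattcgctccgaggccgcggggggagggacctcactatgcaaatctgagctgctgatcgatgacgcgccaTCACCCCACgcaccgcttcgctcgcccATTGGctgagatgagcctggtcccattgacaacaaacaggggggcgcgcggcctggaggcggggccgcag
INSIG1: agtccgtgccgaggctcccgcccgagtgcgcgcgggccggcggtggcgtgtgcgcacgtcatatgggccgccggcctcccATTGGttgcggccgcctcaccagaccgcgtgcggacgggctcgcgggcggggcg
INSIG2: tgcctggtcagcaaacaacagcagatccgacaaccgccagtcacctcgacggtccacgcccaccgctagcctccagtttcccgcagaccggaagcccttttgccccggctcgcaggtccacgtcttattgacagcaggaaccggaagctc
HMGCS1: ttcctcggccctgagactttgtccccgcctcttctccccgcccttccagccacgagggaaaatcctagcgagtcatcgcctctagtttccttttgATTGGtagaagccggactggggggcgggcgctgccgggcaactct
EBP: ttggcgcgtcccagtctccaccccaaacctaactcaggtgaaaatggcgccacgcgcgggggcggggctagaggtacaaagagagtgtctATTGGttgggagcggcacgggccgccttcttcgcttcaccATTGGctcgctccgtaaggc
NSDHL: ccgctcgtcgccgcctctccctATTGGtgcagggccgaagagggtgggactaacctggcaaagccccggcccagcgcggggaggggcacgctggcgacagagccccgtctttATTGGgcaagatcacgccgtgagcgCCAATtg
TM7SF2: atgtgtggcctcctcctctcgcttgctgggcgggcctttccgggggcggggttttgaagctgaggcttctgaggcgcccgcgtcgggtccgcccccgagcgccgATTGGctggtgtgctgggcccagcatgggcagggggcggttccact

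The SREBF genes also carry microRNA genes in their introns. MIR33A lies in intron 16 of SREBF2 and MIR33B in intron 16 of SREBF1, by the GENCODE v44 canonical transcripts, which have 19 exons each. Both microRNAs are known to target cholesterol export genes, and their mature 5′ arms are shown because the seed, bases 2 to 8 in capitals, is the same in both. The first lies at chr22:41900949-41900969 on the plus strand and the second at chr17:17813897-17813916 on the minus strand.
hsa-miR-33a-5p: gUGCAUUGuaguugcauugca
hsa-miR-33b-5p: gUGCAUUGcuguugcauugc

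The row of MIR33A held 0, 0.149 and 0 TPM in replicates 1, 2 and 3, and that of MIR33B at 0.359, 1.14 and 1.64 TPM. Poly(A) libraries do not measure mature microRNAs, so these values do not give the level of the microRNA. Both precursors have 0 bases in canonical exons of their host, and which RNA these rows reflect was not tested. A further row in SREBF1, that of MIR6777 in intron 17, was at 27.9, 18.0 and 23.2 TPM.

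Some levels rest on rows that share bases with another gene. The rows of 18 members overlapped another row, and those of 6 overlapped a row with a mean of at least 10 TPM. The row of ACAT2 shares 615 bp with that of TCP1 on the opposite strand, and TCP1 was at 247 ± 5.85 TPM. Of these, 454 bp lie in exons of both by the GENCODE v44 canonical transcripts, used for all exons here. The gene models behind the rows may have other exons. ACAT2 also shares 573 bp with SOD2, with 0 bp in canonical exons of both. FADS1 and FADS2 lie head to head on opposite strands of chromosome 11 and share 801 bp. In that stretch 449 bp lie in canonical exons of FADS1 and 0 bp in those of FADS2. SREBF1 shares 105 bp of canonical exon with RAI1 on the opposite strand, at 23.9 ± 1.34 TPM. MVK shares 120 bp with MMAB, and TM7SF2 shares 9 bp with VPS51 on the same strand, at 61.8 ± 2.26 TPM. The strand setting of the quantification is not given in the sources used here, so reads from such stretches may have been counted for either gene. HSD17B7P2, a pseudogene copy of HSD17B7, was at 1.62, 1.84 and 2.02 TPM, and FDPSP2, a copy of FDPS, was below 1 TPM, so the levels of these parent genes are uncertain by reads that match both.

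Differences between libraries were examined in the 30 members whose mean reached 10 TPM, beside all 8419 genes that reached it. The range of log2(TPM + 1) over the 3 libraries was above 0.5 for 1 member, ELOVL6, at 0.58, and for 1.41% of all genes. The spread of ELOVL6 depends on the unit. Its coverage per FPKM, relative to the highest value, was 0.527, 0.697 and 0.527 in replicates 1, 2 and 3. The median coefficient of variation was 4.50% for the members and 4.88% for all genes. By arm it was 4.27% for mevalonate and sterol enzymes, 5.52% for regulators and carrier, and 7.17% for fatty acid genes. Of the 30 members, 16 were highest in replicate 1, against 62.5% of all genes, and 13 were both highest in replicate 1 and lowest in replicate 3, against 38.6%. With any 1 replicate left out the members' coefficient of variation was instead above that of all genes, at 3.601% and 2.51% without replicate 1, 5.29% and 5.09% without replicate 2, and 4.57% and 4.49% without replicate 3.

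A few members differed more between replicates 1 and 3 than most genes. Over all 8419 genes the median log2 difference of replicate 1 minus replicate 3 was 0.07, with 0.26 at the 95th percentile and -0.16 at the 5th. HMGCS1 at 0.38, INSIG1 at 0.34, MSMO1 at 0.30, SCD at 0.28, and ME1 and ELOVL6 at 0.26 each lay above the 95th percentile, and 0 members lay below the 5th. That is 6 of 30 members, where 421 of 8419 genes lie beyond each percentile by definition. The size of the HMGCS1 difference depends on the unit. Coverage per FPKM of its row, relative to the highest value, was 0.704, 0.728 and 0.803 in replicates 1, 2 and 3. Between replicates 1 and 2, IDI1 and ELOVL6 lay above the 95th percentile, and between replicates 2 and 3, HMGCS1 and LSS lay above it and ELOVL6 below the 5th. Other enzymes of the same pathway did not show it. Of the 30 members, 25 were higher in replicate 1 than in replicate 3, as were 73.2% of all genes, and the 5 that were lower were mevalonate and sterol enzymes. These were FDPS at -0.01, EBP at -0.04, MVD at -0.08, PMVK at -0.11 and NSDHL at -0.12. Relative to all genes, the members' median stood 0.00, 0.03 and -0.02 from the mean of the other libraries in replicates 1, 2 and 3. For fatty acid genes the same values were 0.09, 0.00 and -0.05, for mevalonate and sterol enzymes -0.06, 0.03 and 0.00, and for regulators 0.02, 0.05 and -0.07. With no filter on low TPM the mevalonate and sterol enzymes were at 0.013 in replicate 1 and -0.057 in replicate 3, so the direction of this shift is not settled. Replicate 1 also had the highest relative depth, and the part of depth or culture in these differences was not tested.

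**Figure D4:**
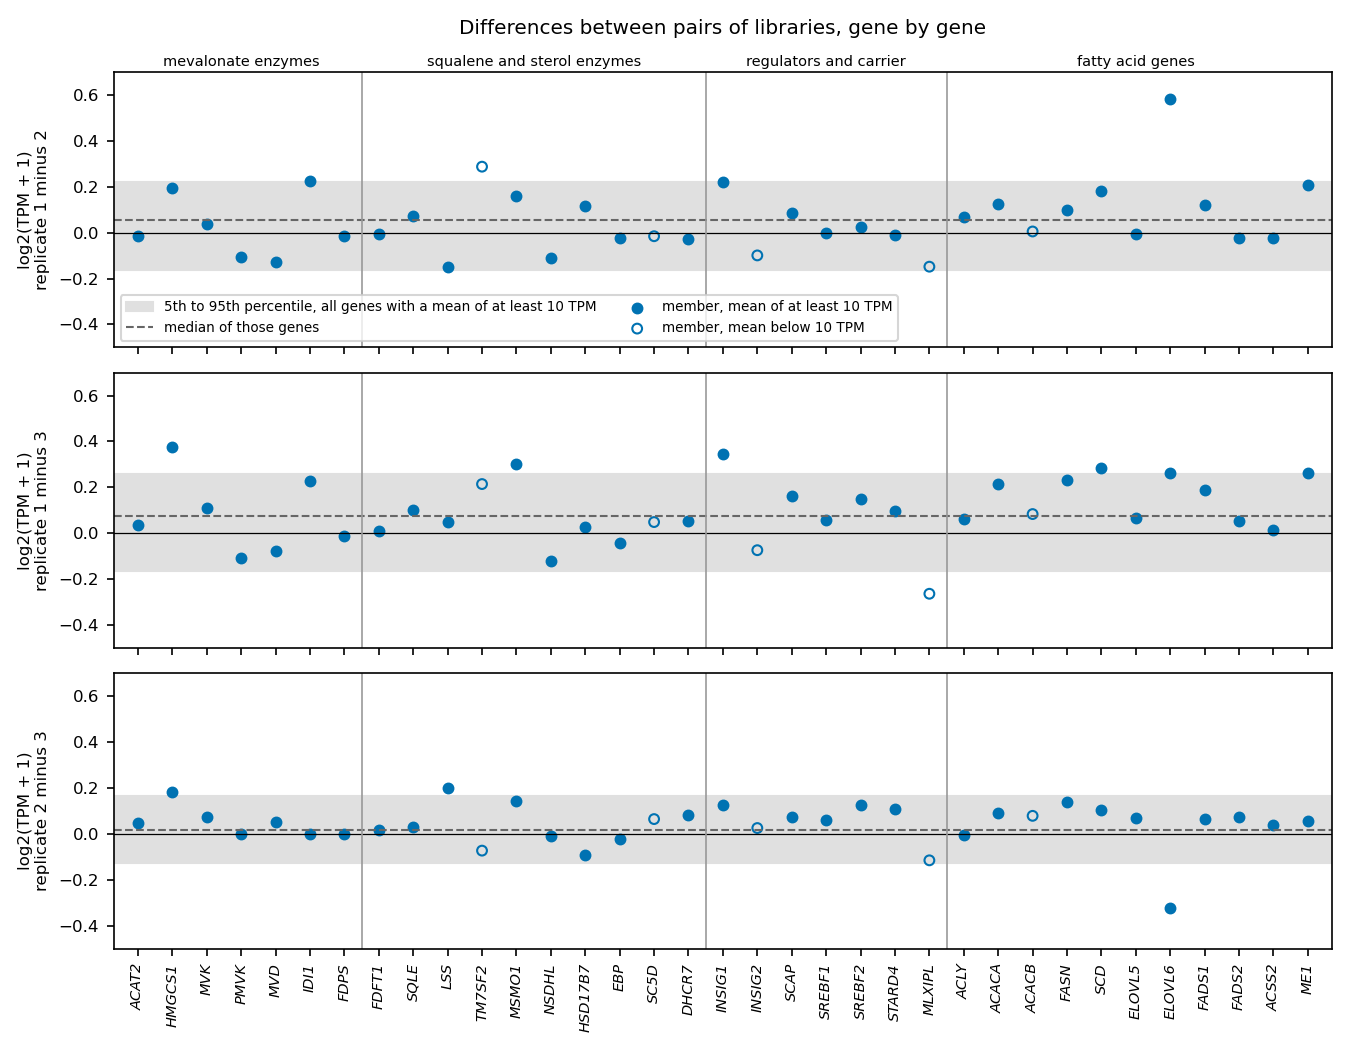
Difference in log2(TPM + 1) between each pair of libraries for every member in pathway order, with the grey band from the 5th to the 95th percentile of the 8419 genes whose mean reached 10 TPM and their median as a dashed line; open circles are members below that mean. In replicate 1 minus replicate 3, HMGCS1, INSIG1 and MSMO1 lie above the band, while FDPS at -0.01 and EBP at -0.04 lie inside it.

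Genes that serve the same pathways outside the list were counted at 10 TPM in all 3 libraries. Over all gene rows that share was 20.7%, and over rows of protein-coding genes it was 40.3%. The sterol partners had a median of 54.7 TPM, beside 51.1 TPM for the mevalonate and sterol enzymes of the list, which spanned a wider range. All 8 of 8 sterol partners, which include LBR, the redox partners POR and CYB5R3 and the scaffold ERG28, had at least 10 TPM in all 3 libraries. The highest was CYB5R3 at 76.7 ± 3.17 TPM and the lowest CYB5A at 37.2 ± 6.76 TPM. Of 13 genes of SREBP processing and control, 12 reached that level. VCP, the extraction ATPase, was highest at 199 ± 3.75 TPM and RNF139, a ubiquitin ligase, lowest at 8.08 ± 0.872 TPM. The proteases that cut SREBP, MBTPS1 and MBTPS2, were at nearly equal levels, 39.2 ± 2.10 and 39.8 ± 4.44 TPM. The isoprenoid branch, which draws on farnesyl diphosphate, had 7 of 9 genes at that level, from FNTA, a farnesyltransferase subunit, at 50.9 ± 2.92 TPM to PGGT1B at 5.31 ± 0.321 TPM.

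Among 14 partners of elongation and desaturation, 8 had at least 10 TPM in all 3 libraries and 3 were below 1 TPM in each. ELOVL1, the elongase of very long chains, was highest at 144 ± 1.73 TPM, and ELOVL4 was listed at 0 in all 3. The lower ranks of this list held other elongases, with ELOVL7 at 8.57 ± 0.961 TPM and ELOVL3 at 1.22 ± 0.200 TPM. Among 13 genes of fatty acid activation and esterification, 8 reached that level. AGPAT2, an acyltransferase of phospholipid and triglyceride synthesis, was highest at 195 ± 6.16 TPM, and ACSL6 was listed at 0. SOAT1, which esterifies cholesterol in most cells, was at 50.2 ± 3.93 TPM, and SOAT2, its counterpart of hepatocytes and enterocytes, was below 1 TPM in each library.

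**Figure D5:**
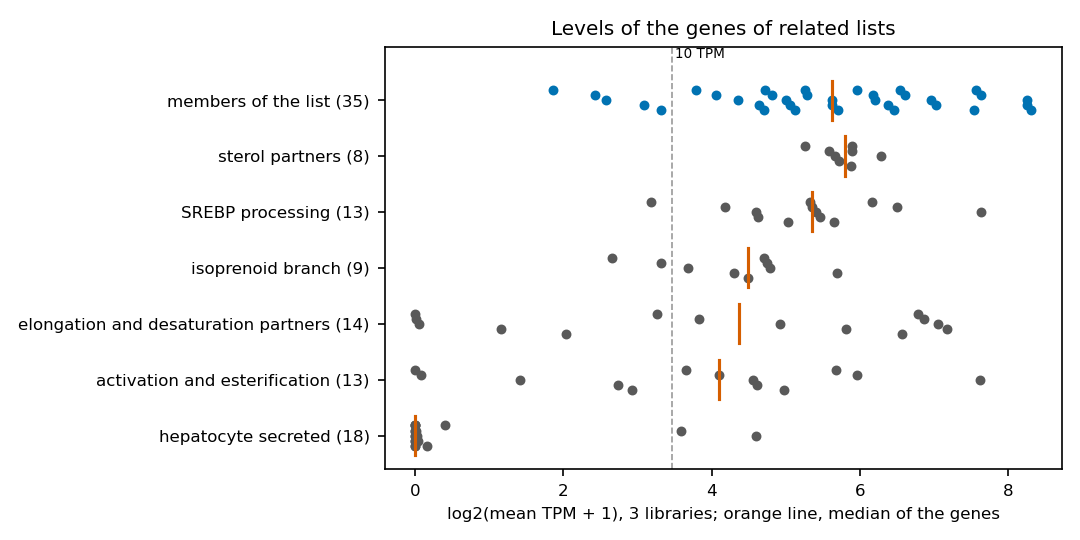
Mean TPM of each gene, as log2(mean TPM + 1) over 3 libraries, for the 35 members and for lists of related genes and hepatocyte secreted proteins, with the number of genes in brackets and the median of each list as an orange line; the dashed line is 10 TPM. All 8 sterol partners lie right of that line, as do 2 of 18 hepatocyte secreted proteins.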

How the data were processed

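RNA-seq of poly(A) RNA was analysed in 3 libraries labelled HepG2. By the submitters' processing notes, reads were checked with FastQC 0.11.8, trimmed with Trim Galore 0.6.2 and mapped to GRCh38 with STAR 2.6.1a, and StringTie is also named. The annotation and strand setting are not given in the sources used here. The authors deposited 1 table per library with the TPM, the FPKM and the coverage of each gene. TPM, scaled by the authors for gene length and library total, was used as deposited, FPKM and coverage only as alternatives. In the deposited tables coverage is a mean depth that is not scaled for library size.

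Rows were joined by gene and coordinates (43389 rows), and the 39320 on assembled chromosomes were kept. No counts were used, so no counting interval is given and the depth is not known. The precision of a value is its SD over 3 libraries. The range, the coefficient of variation and the shift used genes whose mean reached 10 TPM, and the range calculation was tested on simulated data. Related genes were compared with exact sign-flip permutation tests and Benjamini-Hochberg adjustment over 12 pairs, of which 1 is not reported here. The genes named were all 35 members, their pair partners, the marker lists, and the highest and lowest of each related list. The other genes of the related lists and those next to or overlapping members were named after their values were seen. The members and lists were chosen with earlier results of these data known. Promoters and microRNAs came from RefSeq tables of GRCh38.p14, and exons from GENCODE v44, in which 35 of 35 members had the same chromosome and strand and 27 had both ends within 1000 bp of the row. The alternatives were leaving out each replicate, another pseudocount (0.1), other limits on low TPM, FPKM or coverage, scaling by median-of-ratios factors, and TPM rescaled without mitochondrially encoded genes. Python 3.11.15, numpy 2.4.6, pandas 2.3.3, scipy 1.17.1 and matplotlib 3.10.9 were used.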

Additional observations from a re-analysis of the deposited data

How the results depend on the processing

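Over 63 results, 1 of the recomputed values was reversed, and 44 without a test, or counts, moved beyond their limit. The other 339 include ratios of related genes, which were judged by direction alone and could change in size. The log2 ratio of ACAT2 to ACAT1 changed from -0.42 to 1.90 with coverage in place of TPM, and the log2 ratio of the sterol to the fatty acid median changed from 0.08 to -0.49. Coverage also widened the ratios of SCD, ACACA, FADS1, INSIG1, SREBF1 and ME1 to their partners, that of SREBF1 from 0.44 to 3.02, and ACSS2 to ACSS1 went from 4.06 to 5.89 with a pseudocount of 0.1 and to 3.21 with FPKM. The cause was not tested for coverage. The count of members with a range above 0.5 was 0 with FPKM, where the limit of 10 was set on FPKM and left ELOVL6 untested among 27 members, and ran from 0 to 1 with each replicate left out; without replicate 1 or without replicate 2, ELOVL6 fell below the limit. The shift of all members in replicate 1 was 0.044 with no filter on low TPM and ran from -0.027 to 0.0072 with replicate 2 or 3 left out, and that in replicate 3 was -0.068 with no filter. For mevalonate and sterol enzymes, no filter turned the shift in replicate 1 from -0.055 to 0.013. Leaving out mitochondrially encoded genes raised all 35 levels, by factors of 1.25 in each library. The count of members with at least 10 TPM in every library was 27 with FPKM, 31 without mitochondrially encoded genes and 30 with any 1 replicate left out. The median coefficient of variation of the members ran from 3.601% to 5.29% with each replicate left out. No paired analysis was possible because only 1 condition was sequenced. The tables hold no counts, so counting error at low levels such as those of TM7SF2 could not be given.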
